A study of Mus musculus with 9 samples.

Results

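The eukaryotic translation initiation factors of mouse gastrocnemius, a mixed calf muscle made mostly of fast fibers, were described from RNA sequencing of 9 libraries. They were defined by name, as protein-coding genes whose symbol starts with Eif1 to Eif6, without the genes of the 4E-binding proteins (Eif4ebp1, Eif4ebp2 and Eif4ebp3). The family was chosen with earlier results of these data known. The rule found 52 of the 55416 gene identifiers in the table, and all 52 had counts in at least 1 library. The libraries formed 3 groups of 3. SED mice were sedentary. AET mice ran on a motorized treadmill for 60 minutes a day on 5 days a week over 8 weeks. AET_MET mice ran in the same way and also drank water with metformin, an oral glucose-lowering drug, at 2 mg/mL. Muscle was snap frozen, and the sources used here do not give the strain, sex, age, feeding state or delay since the last run. No sedentary group given metformin was analysed here, so an effect of the drug on training and an effect of the drug alone cannot be told apart.

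Initiation is the step of translation at which a ribosome is loaded onto an mRNA and placed at its start codon. The cap-binding protein eIF4E, the scaffold eIF4G and the RNA helicase eIF4A together form eIF4F, which opens the 5′ end of the mRNA. The small ribosomal subunit carries eIF1, eIF1A, eIF3 and eIF5, and eIF2 brings the initiator tRNA in a form bound to GTP. The exchange factor eIF2B reloads eIF2, and phosphorylation of the alpha subunit of eIF2 by stress kinases blocks that exchange. In muscle this machinery is known as an endpoint of mTORC1 signaling after feeding and contraction, much of it by phosphorylation, which mRNA levels do not report.

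Libraries held 15434424 to 25355877 expected counts, the estimated read numbers given by RSEM. Before any scaling, initiation factors took 0.379% to 0.403% of the counts in SED, 0.360% to 0.370% in AET and 0.403% to 0.412% in AET_MET. Levels below are CPM, which are counts per unit of library size after TMM scaling, given in the order of replicates 1, 2 and 3, and changes are log2 fold changes ± SE from edgeR. On the CPM scale the factors summed to 3942, 3981 and 4019 in SED, 3846, 3572 and 3728 in AET, and 3832, 3826 and 4028 in AET_MET. The AET_MET mean of 3895 was then below the SED mean of 3981, unlike the order of the unscaled shares. Calls are genes with an adjusted p (Benjamini-Hochberg, over all 13944 genes tested) under 0.05. Fast-fiber markers summed to 124359 to 143702 CPM in the 9 libraries, with no marker of that list at 0 in all of them. Of the marker lists for other cells, all 5 fibroblast genes were detected, and their sum averaged 1166 CPM (SD 179) for SED, with AET libraries at 793 to 865 and AET_MET libraries at 655 to 724. The 5 Schwann-cell genes summed to 32.2 to 37.8 CPM in SED and 24.5 to 56.2 in AET_MET, against 63.6 to 111 in AET. Slow-fiber markers differed widely within the trained groups, at 353, 297 and 1128 CPM in AET and 69.3, 644 and 247 in AET_MET, against 748 to 916 in SED. Tenocyte markers summed to 292 to 466 CPM in SED, 126 to 285 in AET and 87.5 to 195 in AET_MET, and smooth muscle and pericyte markers to 463 to 549, 566 to 666 and 468 to 559. The part of these shifts in the results below was not tested, and in bulk tissue fewer cells of a type and less RNA per cell cannot be told apart.

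The RefSeq table for GRCm38.p6 gave a promoter for 42 of the 52 genes, read here over the 250 bases before each start of transcription. A gene with more than 1 start was counted as holding a motif if any of its promoters did. A CACGTG E-box, a motif bound by MYC and by the TFEB family and palindromic on both strands, stood in 9 of the 42 (21.4%), against 6.86% of 27025 genes. That background is every gene with a RefSeq promoter, whether or not it was tested here, and was not matched for GC content. The promoters of Eif4a1 (chr11:69672424-69672673, minus strand), Eif3k (chr7:28981889-28982138, minus strand) and Eif3f (chr7:108934165-108934414, plus strand) are shown as 3 that hold the E-box, in capitals, whose genes had lower estimates in AET than in SED. Those of Eif5b (chr1:37997760-37998009, plus strand) and Eif3b (chr5:140419055-140419304, plus strand) hold none, and are shown because these genes had higher estimates in AET. The 5 were picked after their values were seen, and the motif did not separate the directions. Eif3m, Eif5 and Eif4a2, all called lower in AET, have no E-box in this window. Eif4e, which has it before only 1 of its starts, had a log2 change of 0.06. Each is written 5′ to 3′ along the strand of its gene.
Eif4a1: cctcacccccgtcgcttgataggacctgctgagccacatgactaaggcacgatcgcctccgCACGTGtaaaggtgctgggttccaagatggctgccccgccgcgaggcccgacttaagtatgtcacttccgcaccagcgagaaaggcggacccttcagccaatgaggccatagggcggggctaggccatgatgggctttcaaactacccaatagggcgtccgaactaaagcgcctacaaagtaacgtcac
Eif3k: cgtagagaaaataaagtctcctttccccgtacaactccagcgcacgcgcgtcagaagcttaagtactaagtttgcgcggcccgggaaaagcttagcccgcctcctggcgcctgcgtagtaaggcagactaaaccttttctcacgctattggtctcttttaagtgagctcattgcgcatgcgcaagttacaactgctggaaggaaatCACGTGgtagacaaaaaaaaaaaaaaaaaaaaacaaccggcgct
Eif3f: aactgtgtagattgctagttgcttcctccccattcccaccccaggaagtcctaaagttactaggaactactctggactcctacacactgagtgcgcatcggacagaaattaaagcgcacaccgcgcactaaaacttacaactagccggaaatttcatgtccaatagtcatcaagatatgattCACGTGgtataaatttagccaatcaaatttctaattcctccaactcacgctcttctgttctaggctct
Eif5b: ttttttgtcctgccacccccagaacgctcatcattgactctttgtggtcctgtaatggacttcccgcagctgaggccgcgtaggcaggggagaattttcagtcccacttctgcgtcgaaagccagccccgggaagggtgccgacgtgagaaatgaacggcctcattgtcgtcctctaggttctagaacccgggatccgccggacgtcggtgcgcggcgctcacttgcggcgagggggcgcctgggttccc
Eif3b: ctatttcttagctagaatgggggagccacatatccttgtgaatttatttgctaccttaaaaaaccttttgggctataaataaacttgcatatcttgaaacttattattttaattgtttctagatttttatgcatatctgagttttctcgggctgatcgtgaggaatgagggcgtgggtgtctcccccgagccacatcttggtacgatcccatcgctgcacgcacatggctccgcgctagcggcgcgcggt
The E-box began 189 bases before the start in Eif4a1, 44 in Eif3k and 68 in Eif3f. The other genes with it were Eif1b, Eif4e, Eif4g1, Eif4h, Eif5a and Eif5a2. In AET against SED, 8 of the 9 had a lower estimate, with a median log2 change of -0.22, and 2 were called lower. Of all 51 tested initiation factors 80.4% had a lower estimate, with a median of -0.15. A FOXO site, GTAAACA on either strand, stood in 1 of the 42 promoters (2.38%, Eif2s3y) against 3.54% of all genes. The ATF4 element TGATGNAAT, also read on both strands, was in none, against 0.91% of all genes.

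Most initiation factors were slightly lower in trained muscle than in sedentary muscle, and a few were clearly so. Of 51 tested factors, 41 (80.4%) had a lower estimate in AET than in SED, against 48.6% of all genes tested, and their median log2 change was -0.15 against 0.01. The lowest SED library lay above the highest AET library for 25 of them, against 16.3% of all genes, and the reverse held for 2, against 16.4% (32.7% in either direction). edgeR called 6 lower (Eif3m, Eif4a1, Eif4a2, Eif5, Eif3k and Eif3j2) and 1 higher (Eif2ak2), against a background of 6.45% lower and 5.82% higher. Together the called factors were 13.7% of those tested, close to the 12.3% of all genes, so their number does not set them apart. The number of calls, 7 with all libraries, was 2 when SED replicate 1 was left out and 3 for SED replicate 2. It was 4 for AET replicate 1 and 3 for AET replicate 3. Over all genes the same fits called 1125, 957, 934 and 954, against 1712 with all libraries.

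In trained mice given metformin, most initiation factors had higher estimates than in mice that were only trained. In AET_MET against AET edgeR called 6 factors higher (Eif5, Eif3m, Eif3e, Eif3j2, Eif6 and Eif4a2) and 2 lower (Eif3b and Eif5b). These were 15.7% of the 51 tested, while 3.43% of all genes were called, 1.66% higher and 1.77% lower. An estimate above that of AET was found for 38, against 50.1% of all genes, and below it for 13, against 49.9%, and the median log2 change was 0.12 against 0.00. The libraries of both groups did not overlap for 20 factors that were higher, against 14.7% of all genes, and for 6 that were lower, against 13.2%. The count of 8 was 4 without SED replicate 1 or 2, 3 without AET replicate 1 and 5 without AET replicate 2. It was 2 without AET replicate 3 or AET_MET replicate 1 or 2, and 0 without AET_MET replicate 3. Calls over all genes, 478 with all libraries, fell to 104 without AET replicate 1 and 34 without AET replicate 3. They were 85, 151 and 23 without AET_MET replicates 1, 2 and 3, and 363 to 461 in the other such fits. This comparison and the one of AET with SED share the AET libraries, so a low or high AET value moves both in opposite directions. Across the 51 factors, the change in AET_MET against AET and the GC content of the transcripts had a Spearman rho of -0.32. Across all genes with a transcript sequence it was -0.06. In AET_MET against SED these 2 values were -0.33 and -0.13, and in AET against SED 0.11 and -0.06. They are descriptions over genes of the same libraries. Values of the comparisons are given side by side, and no overlap between AET calls is counted as a result.

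In AET_MET against SED edgeR called none of the 51, against 4.59% of all genes (2.17% higher and 2.42% lower). At an unadjusted p under 0.05 there were 9, and DESeq2 called 0. Estimates were lower for 30, against 49.5% of all genes, and higher for 21, against 50.5%, with a median log2 change of -0.06 against 0.00 for all genes, which was 0.04 against 0.10 when library sizes alone were used for scaling. Groups did not overlap for 6 factors that were higher and 8 that were lower, against 13.4% of all genes in each direction. A factor that misses the threshold is not shown to be equal in these groups.

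**Figure D1:**
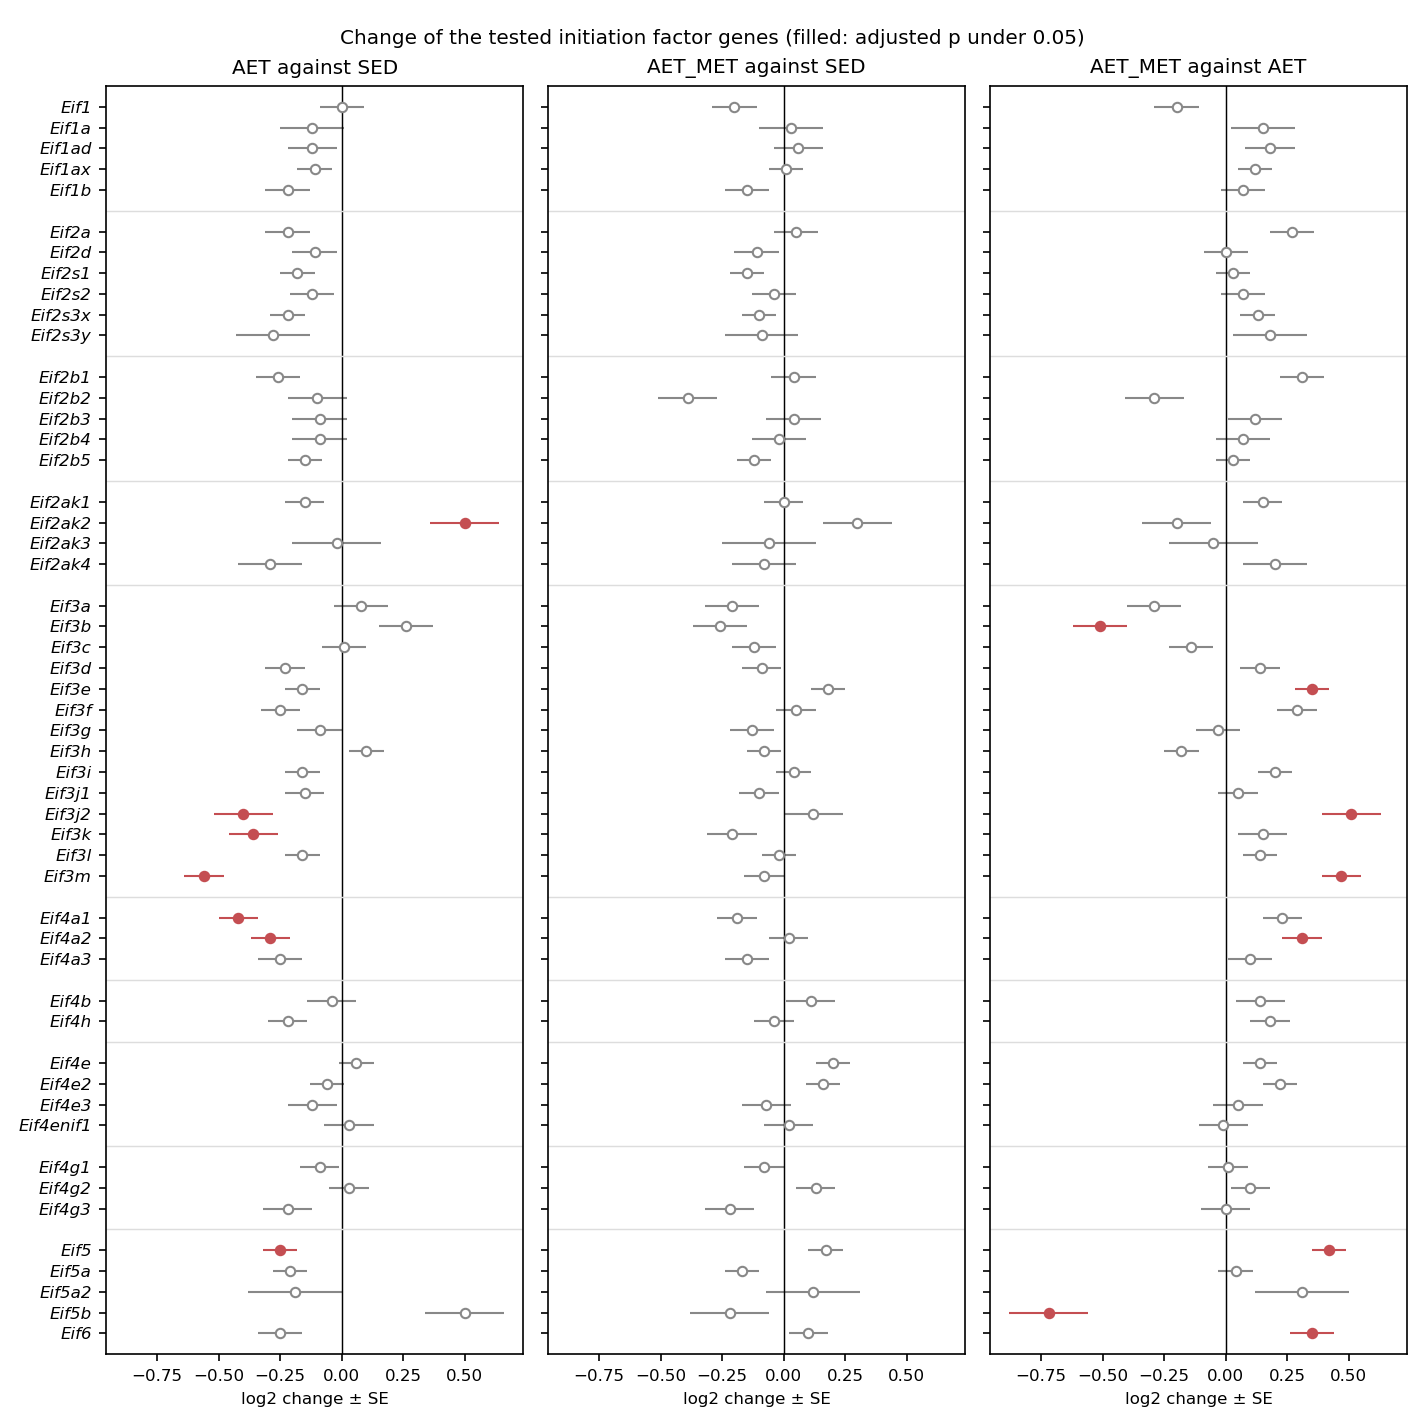
Log2 fold change (horizontal axis) of each tested initiation factor in the 3 comparisons, by factor complex (rows); filled points are called by edgeR, bars are SE and the vertical line marks no change. Most points of AET against SED lie to the left of 0, with Eif3m at -0.56 and Eif2ak2 at 0.50, and most of AET_MET against AET lie to the right.

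The eIF4A group held Eif4a1 and Eif4a2, for the helicase that unwinds the mRNA leader, and Eif4a3, for that of the exon junction complex. It had the lowest median change of the complexes in AET. All 3 genes were lower in every AET library than in every SED library, with a median log2 change of -0.29, and 2 were called. Eif4a1 (chr11:69666936-69672423), the main form in dividing cells, measured 90.5, 101 and 85.6 CPM in SED, 63.7, 72.8 and 70.2 in AET, and 79.1, 86.6 and 77.5 in AET_MET. Its AET libraries were the 3 lowest, and those of AET_MET overlapped SED only through replicate 2. The log2 change was -0.42 ± 0.08 in AET against SED (edgeR adjusted p = 0.00720), and the call remained in each of the 9 fits that left out 1 library. It was 0.23 ± 0.08 in AET_MET against AET (edgeR adjusted p = 0.127) and -0.19 ± 0.08 in AET_MET against SED.

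Eif4a2 (chr16:23107444-23114136), the paralog abundant in muscle, measured 266, 244 and 254 CPM in SED, 193, 219 and 212 in AET, and 248, 259 and 265 in AET_MET. The AET libraries again lay below all others, while those of AET_MET lay within the SED range. Its log2 change was -0.29 ± 0.08 in AET against SED (edgeR adjusted p = 0.0288) and 0.31 ± 0.08 in AET_MET against AET (edgeR adjusted p = 0.0494). The first call was lost without SED replicate 1 or 3 or AET replicate 1 or 3, and the second without any 1 of the 9 libraries, at an adjusted p of 0.0577 to 0.173. Per length of exon, Eif4a1 made up 30.8% ± 2.48 of the pair for SED, 29.0% ± 0.0775 for AET and 27.9% ± 1.37 for AET_MET (SD, n = 3). By library the share was 29.5%, 33.7% and 29.3% in SED, 28.9%, 29.0% and 29.0% in AET, and 28.2%, 29.2% and 26.5% in AET_MET. Every SED library thus lay above those of both trained groups, by a narrow margin outside replicate 2, and the difference was not tested. Eif4a3, the helicase of the exon junction complex, measured 24.6 ± 2.03 CPM in SED and 20.6 ± 1.80 in AET, against 22.2 ± 1.38 in AET_MET, and passed no test. Eif4a1 shares 28.4% of its 50-base windows with other genes, chiefly Eif4a-ps4, a pseudogene at 1.94 CPM or less. Eif4a2 shares 10.6%, and its exons also hold a small nucleolar RNA gene counted at 4.07 to 9.77 CPM.

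The other parts of eIF4F and its cofactors had no call in any comparison. Eif4e, which encodes the cap-binding protein itself, measured 60.5, 60.1 and 61.3 CPM in SED, 59.3, 67.6 and 62.2 in AET, and 71.7, 69.5 and 67.7 in AET_MET. All AET_MET libraries lay above the others, by a narrow margin over AET replicate 2, with a log2 change of 0.20 ± 0.07 against SED (edgeR adjusted p = 0.127). Eif4e2, a homolog that binds the cap and represses translation, measured 29.3, 27.8 and 25.9 CPM in SED, 26.4, 27.3 and 26.0 in AET, and 30.7, 31.3 and 31.0 in AET_MET. It too was highest in AET_MET without overlap (0.22 ± 0.07 against AET, edgeR adjusted p = 0.103). Eif4e3 and Eif4enif1, a transporter of eIF4E, had log2 changes between -0.12 and 0.05 in the 3 comparisons. Eif4e1b, the cap-binding paralog of oocytes, reached 0.123 CPM at most and was not tested.

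The scaffold genes were among the factors with the most counts. Eif4g1 measured 484, 498 and 511 CPM in SED, 496, 435 and 472 in AET, and 465, 454 and 489 in AET_MET, with overlap between all groups. Eif4g2, which encodes a scaffold without the eIF4E site, measured 416, 407 and 386 CPM in SED, 431, 393 and 410 in AET, and 446, 416 and 462 in AET_MET. Eif4g3 measured 150, 140 and 129 CPM in SED, 140, 107 and 112 in AET, and 128, 114 and 117 in AET_MET. AET replicate 1 kept Eif4g3 within the SED range, and its log2 change of -0.22 ± 0.10 in AET (edgeR adjusted p = 0.180) was -0.35 without that library (edgeR adjusted p = 0.0352). No other of the 9 fits without 1 library called it. For Eif4b, which stimulates the helicase, counts were 285, 310 and 323 CPM in SED, 342, 276 and 277 in AET, and 314, 322 and 353 in AET_MET. Its range in AET enclosed that of SED. Eif4h, with a similar role, measured 73.4, 79.1 and 71.1 CPM in SED, 57.1, 70.8 and 64.3 in AET, and 73.6, 72.1 and 72.2 in AET_MET. AET was lowest without overlap, but the change of -0.22 ± 0.08 did not pass the test (edgeR adjusted p = 0.104).

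**Figure D2:**
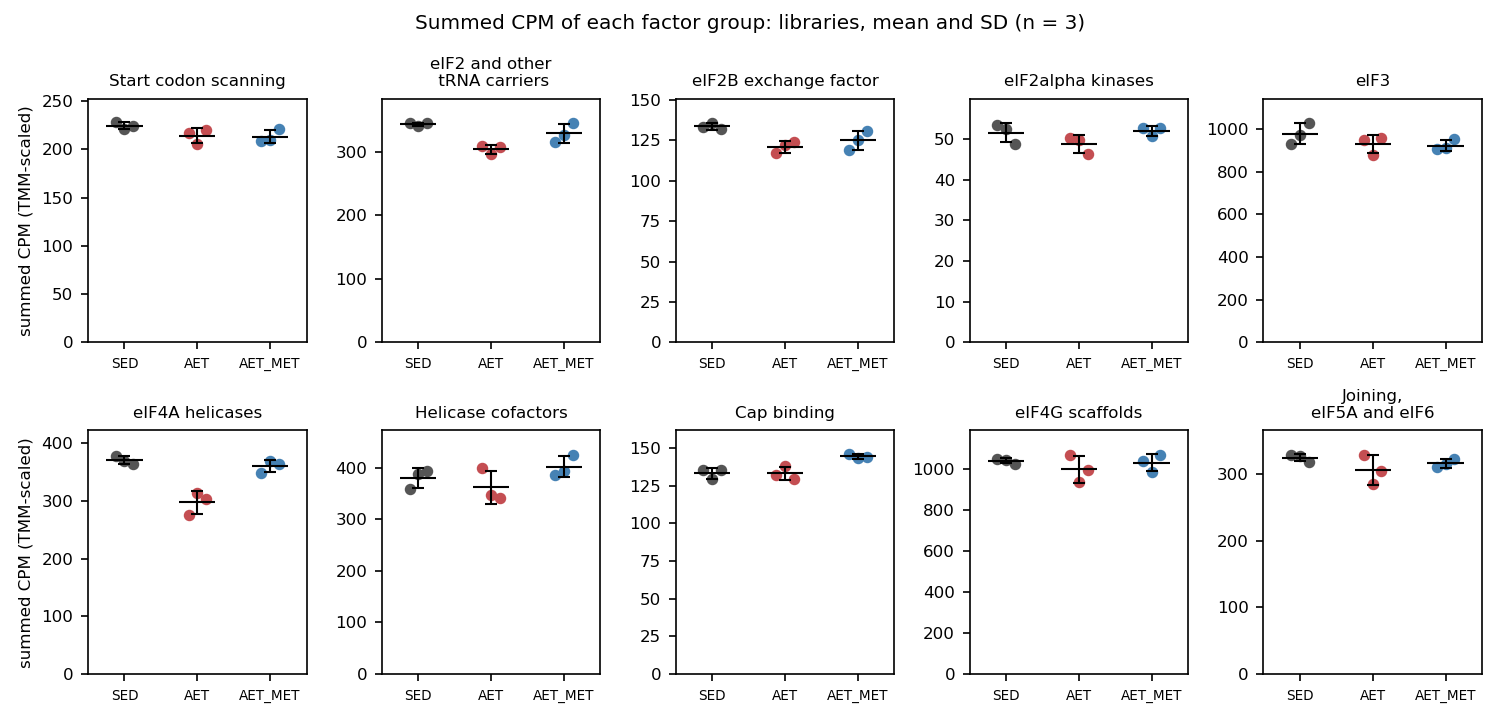
Summed CPM of each factor complex (vertical axis from 0, each panel on its own scale) in the 3 libraries of SED, AET and AET_MET; points are libraries, and lines and bars are the mean and SD. The eIF4A panel has AET at 298 ± 20.0 CPM below SED at 372 ± 7.09, and the cap-binding panel has AET_MET at 144 ± 1.14 CPM above SED at 133 ± 3.73.

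The complex eIF3, the largest factor and the platform that holds the small subunit to the mRNA, did not move as a unit. Of its 14 genes edgeR called 3 lower in AET than in SED and none higher, and 10 had a lower estimate, with a median log2 change of -0.16. In AET_MET against AET 3 were called higher and 1 lower, with a median of 0.14. Eif3m (chr2:104999656-105017080), a subunit of the octameric core, measured 51.0, 55.3 and 52.5 CPM in SED, 32.1, 36.9 and 38.9 in AET, and 48.6, 51.4 and 49.8 in AET_MET. The gap between the AET libraries and all others was wider than the range within any group. Its log2 change was -0.56 ± 0.08 in AET against SED (edgeR adjusted p = 0.00114), called in each of the 9 fits without 1 library, and 0.47 ± 0.08 in AET_MET against AET (edgeR adjusted p = 0.0141). The second call was lost without AET_MET replicate 3, at an adjusted p of 0.0785. Eif3m shares 17.2% of its 50-base windows with the pseudogene Gm7658, which was counted at 0.617 CPM or less.

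Eif3e (chr15:43250058-43282719), another core subunit, gave 82.6, 86.7 and 84.8 CPM in SED, 77.4, 72.0 and 77.4 in AET, and 96.6, 96.9 and 94.8 in AET_MET. The 3 groups did not overlap, with AET lowest and AET_MET highest. The log2 change was -0.16 ± 0.07 in AET against SED (edgeR adjusted p = 0.123) and 0.35 ± 0.07 in AET_MET against AET (edgeR adjusted p = 0.0210), a call lost without AET replicate 3 or any 1 of the AET_MET libraries. Eif3k (chr7:28971372-28981864), a subunit that pairs with eIF3l, measured 34.7, 34.8 and 31.7 CPM in SED, 22.9, 30.6 and 25.2 in AET, and 28.4, 28.2 and 30.8 in AET_MET. Both trained groups lay below SED, and only the fall in AET passed the test (-0.36 ± 0.10, edgeR adjusted p = 0.0344). That call was lost without SED replicate 1 or 2, AET replicate 1 or 3, or AET_MET replicate 1 or 2. Eif3f, a core subunit that binds mTORC1 and is targeted by atrogin-1 in atrophying muscle, measured 44.5, 47.5 and 40.4 CPM in SED, 36.7, 36.9 and 38.2 in AET, and 48.3, 45.0 and 43.6 in AET_MET. AET was lowest without overlap, and both tests just missed the threshold, with -0.25 ± 0.08 against SED (edgeR adjusted p = 0.0561) and 0.29 ± 0.08 in AET_MET against AET (edgeR adjusted p = 0.0580).

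Eif3j2, a copy of the loosely bound subunit gene Eif3j1, measured 28.5, 30.7 and 30.1 CPM in SED, 18.9, 21.9 and 26.8 in AET, and 30.6, 29.5 and 36.7 in AET_MET. AET was lowest without overlap, at -0.40 ± 0.12 against SED (edgeR adjusted p = 0.0478), and AET_MET was 0.51 ± 0.12 above AET (edgeR adjusted p = 0.0386). The first call was lost without any 1 SED library, AET replicate 1 or 2, or AET_MET replicate 1 or 2, and the second in every such fit but the one without AET replicate 3. Since 91.8% of its 50-base windows stand in other genes, mainly Eif3j1, and its counts were fractional in all 9 libraries, how reads were divided between the pair is uncertain. Eif3j1 itself had log2 changes of -0.15 ± 0.08 in AET against SED and 0.05 ± 0.08 in AET_MET against AET.

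The other 4 eIF3 genes had higher estimates in AET than in SED, and none was called there. Eif3b (chr5:140419328-140443360), which encodes the subunit that joins the core to eIF3i and eIF3g, measured 44.4, 51.2 and 52.1 CPM in SED, 65.6, 49.3 and 61.7 in AET, and 40.6, 37.6 and 45.5 in AET_MET. AET replicates 1 and 3 stood above all other libraries, and AET replicate 2 lay within the SED range. The log2 change was 0.26 ± 0.11 in AET against SED (edgeR adjusted p = 0.147, or 0.0423 without AET replicate 2, the only 1 of the 9 fits without 1 library that called it) and -0.51 ± 0.11 in AET_MET against AET (edgeR adjusted p = 0.0299). The latter call was lost without AET replicate 1 or 3 or any 1 of the AET_MET libraries. Eif3a, the largest subunit, changed by 0.08 ± 0.11 in AET against SED and -0.29 ± 0.11 in AET_MET against AET, and Eif3h, of the core, by 0.10 ± 0.07 and -0.18 ± 0.07. For Eif3c, the core subunit that contacts eIF1 and eIF5, the same 2 values were 0.01 ± 0.09 and -0.14 ± 0.09. None of these 3 passed a test. The 5 remaining genes, Eif3d, Eif3g, Eif3i, Eif3j1 and Eif3l, had log2 changes from -0.23 to -0.09 in AET against SED and none was called.

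**Figure D3:**
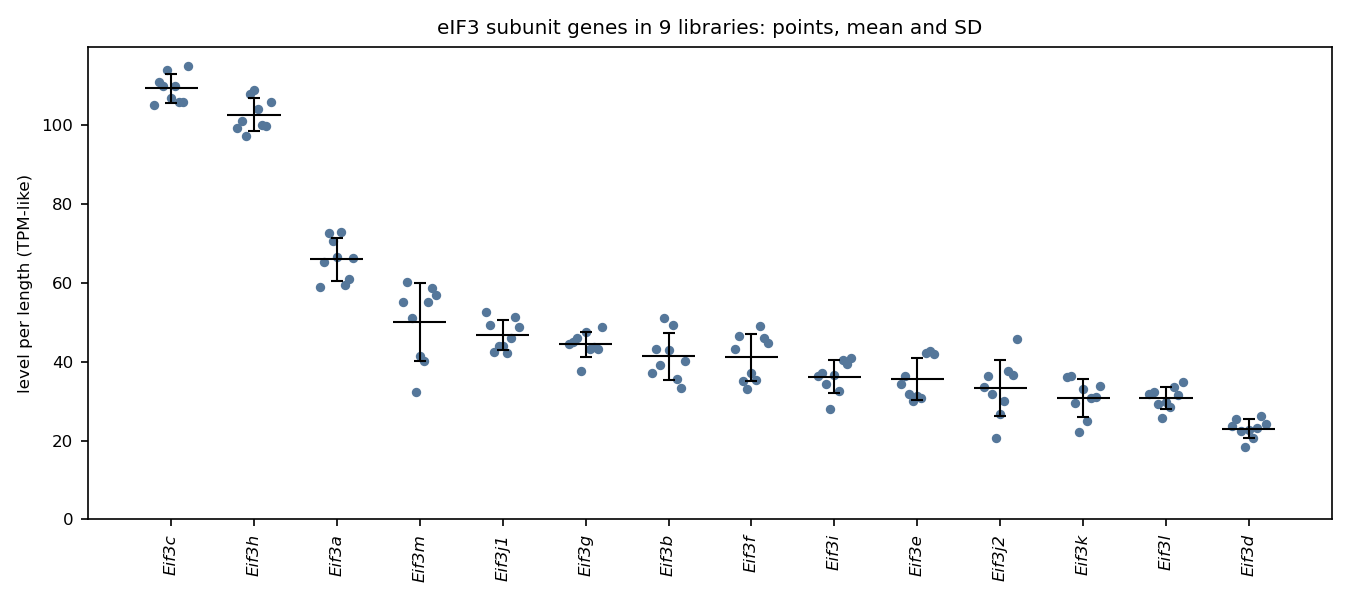
Level per exon length (vertical axis, scaled to the same total in every library) of the 14 eIF3 genes, ordered by mean; points are the 9 libraries of all groups, and bars are the mean and SD. Eif3c at 109 and Eif3h at 103 stand above Eif3a at 65.9, and Eif3d at 23.0 is lowest.

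Per length of all annotated exons, eIF3 genes were unequal even though their products form 1 complex. That length exceeds the mean transcript unevenly, at 4968 bases against 975 for Eif3d and 3511 against 1596 for Eif3c. The part of this length in the order of genes was not tested. The mean over 9 libraries ran from 23.0 for Eif3d to 109 for Eif3c, a ratio of 4.74. Eif3m, at 50.1, was the fourth in this order. Among all initiation factors the highest levels per length were those of Eif4b at 195, Eif4g1 at 183, Eif5a at 152 and Eif4a2 at 126. The stress kinase genes Eif2ak2, Eif2ak3 and Eif2ak4, at 2.78, 2.67 and 1.99, and Eif5a2 at 1.76 were the lowest of those tested.

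**Figure D4:**
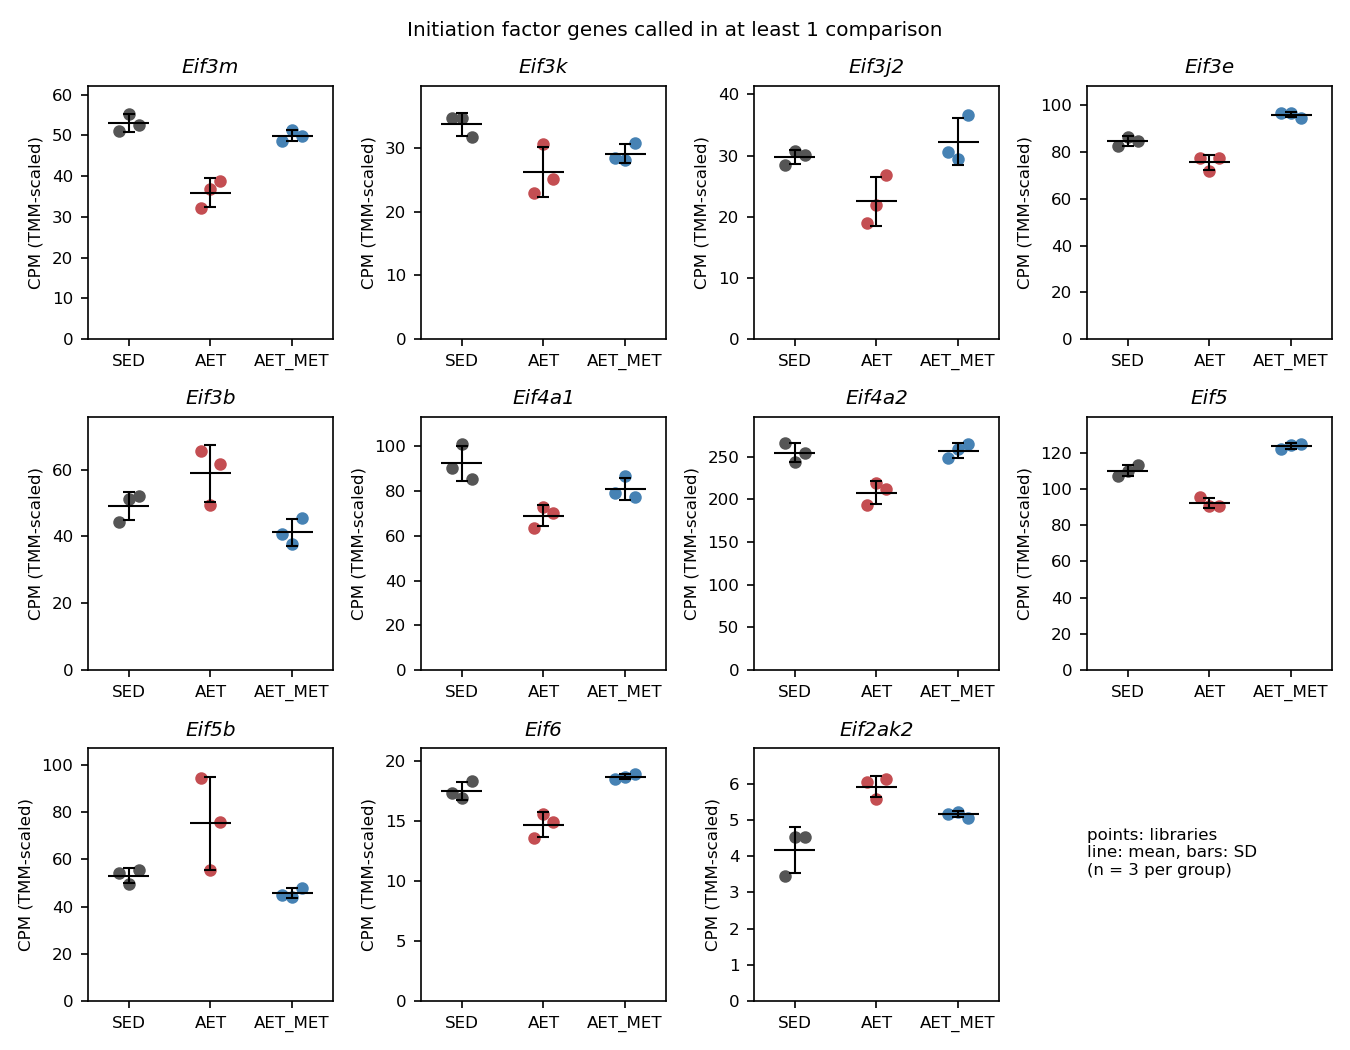
CPM (vertical axis from 0) of the 11 factors called in at least 1 comparison, 1 panel each, in SED, AET and AET_MET; points are libraries, and lines and bars are the mean and SD. In the Eif3m panel AET lies between 32.1 and 38.9 CPM with both other groups at 48.6 or more, while in the Eif5b panel AET spreads from 55.5 to 94.7 CPM.

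Subunit joining and start codon recognition included a pair of factors that moved in opposite directions. Eif5 (chr12:111538016-111546752) encodes the protein that makes eIF2 hydrolyse its GTP at the start codon. It measured 107, 110 and 113 CPM in SED, 95.5, 90.5 and 90.4 in AET, and 122, 124 and 125 in AET_MET, and the 3 groups did not overlap. The log2 change was -0.25 ± 0.07 in AET against SED (edgeR adjusted p = 0.0257), 0.42 ± 0.07 in AET_MET against AET (edgeR adjusted p = 0.0120) and 0.17 ± 0.07 in AET_MET against SED (edgeR adjusted p = 0.165). The first call was lost without any 1 SED library or AET replicate 2 or 3, and the second without AET replicate 3 or AET_MET replicate 3.

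Eif5b (chr1:37998010-38055579) encodes the GTPase that joins the large ribosomal subunit. It measured 54.4, 49.5 and 55.5 CPM in SED, 94.7, 55.5 and 75.7 in AET, and 45.0, 43.9 and 48.1 in AET_MET. AET was the most scattered group, with replicate 2 at the top of the SED range, and AET_MET lay below both. The log2 change of 0.50 ± 0.16 in AET against SED missed the threshold (edgeR adjusted p = 0.0690, or 0.00333 without AET replicate 2, the only 1 of the 9 fits without 1 library that called it). It was called with library sizes alone (edgeR adjusted p = 0.0200), a filter of 5 CPM (0.0464) and DESeq2 (0.0228). In AET_MET against AET it was -0.72 ± 0.16 (edgeR adjusted p = 0.0437), a call that only the fit without AET replicate 2 kept among the 9 fits without 1 library. Rev1, on the opposite strand, shares 1643 of the 9753 exon bases of Eif5b and averaged 19.9 CPM for SED, 16.8 for AET and 17.5 for AET_MET. Strand setting is not given in the sources used here, so reads in the shared bases cannot be assigned.

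Eif6 (chr2:155819832-155826925) encodes the factor that keeps the large subunit from joining early. It measured 17.3, 16.9 and 18.3 CPM in SED, 13.6, 15.6 and 14.9 in AET, and 18.5, 18.7 and 18.9 in AET_MET, with no overlap between groups. The log2 change was 0.35 ± 0.09 in AET_MET against AET (edgeR adjusted p = 0.0443) and -0.25 ± 0.09 in AET against SED (edgeR adjusted p = 0.0736). Among the 9 fits without 1 library, the AET_MET call was kept only without SED replicate 3. Eif5a, whose hypusine-bearing product relieves stalled ribosomes, measured 146, 148 and 129 CPM in SED, 123, 121 and 121 in AET, and 120, 124 and 129 in AET_MET. All but AET_MET replicate 3, level with the lowest SED library, lay below SED, at -0.21 ± 0.07 in AET (edgeR adjusted p = 0.0812). Its paralog Eif5a2 was 0.896% to 1.57% of the pair per length in the 9 libraries.

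No gene of start codon scanning was called in any comparison. Eif1, which keeps the scanning ribosome open, measured 90.9, 91.2 and 90.5 CPM in SED, 99.2, 78.9 and 95.0 in AET, and 74.8, 74.7 and 88.1 in AET_MET. AET spread around SED, and AET_MET lay below SED by -0.20 ± 0.09 (edgeR adjusted p = 0.257). Eif1b, its paralog, measured 15.3, 15.7 and 14.3 CPM in SED, 13.4, 12.8 and 12.8 in AET, and 13.8, 14.1 and 13.1 in AET_MET. Both trained groups were below SED, and neither difference passed the test. Eif1a, Eif1ax and Eif1ad had log2 changes between -0.12 and 0.18 in the 3 comparisons.

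All 6 genes of eIF2 and of the alternative tRNA carriers had lower estimates in AET than in SED, from -0.28 to -0.11, and none was called. Eif2s1, which encodes the alpha subunit that the stress kinases phosphorylate, measured 33.3, 34.6 and 31.9 CPM in SED, 29.2, 28.7 and 30.0 in AET, and 29.7, 31.6 and 28.7 in AET_MET. Both trained groups were below SED without overlap (-0.18 ± 0.07 in AET, edgeR adjusted p = 0.115). Eif2s3x, an X-linked gamma subunit gene, measured 86.3, 86.6 and 85.2 CPM in SED, 73.6, 78.7 and 69.1 in AET, and 81.6, 82.2 and 77.7 in AET_MET. Its SED libraries were close together and above all others, and the change of -0.22 ± 0.07 in AET just missed the threshold (edgeR adjusted p = 0.0563, or 0.0454 without AET replicate 2). Eif2a, an alternative carrier of initiator tRNA, gave 39.6, 40.0 and 40.4 CPM in SED, 38.2, 30.0 and 34.9 in AET, and 40.0, 39.9 and 44.3 in AET_MET. AET was lowest without overlap, at 0.27 ± 0.09 below AET_MET on the log2 scale (edgeR adjusted p = 0.103). Eif2s2, Eif2s3y and Eif2d passed no test, and Eif2s3y, the Y-linked copy, was 26.2% to 27.0% of the gamma pair per length by group mean. Eif2s3y was counted at 22.4 to 37.7 CPM over the 9 libraries, so each held RNA from male tissue, although the sources do not give the sex.

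The exchange factor eIF2B had lower estimates in AET than in SED for all 5 subunits, from -0.26 to -0.09, with none called. Eif2b1, the regulatory alpha subunit, measured 22.9, 23.1 and 22.1 CPM in SED, 18.6, 19.7 and 18.5 in AET, and 21.0, 24.0 and 25.1 in AET_MET. AET was lowest without overlap, at -0.26 ± 0.09 against SED (edgeR adjusted p = 0.0607) and 0.31 ± 0.09 for AET_MET above AET (edgeR adjusted p = 0.0642). Eif2b2, the beta subunit, measured 22.4, 22.2 and 21.0 CPM in SED, 21.1, 19.1 and 20.9 in AET, and 12.8, 19.0 and 18.0 in AET_MET. Its AET_MET libraries were the 3 lowest, with replicate 1 far below the others, and its change of -0.39 ± 0.12 had the smallest p of any factor in AET_MET against SED (edgeR adjusted p = 0.0917). Eif2b5, the catalytic epsilon subunit, measured 51.4, 52.0 and 46.9 CPM in SED, 43.5, 46.2 and 45.4 in AET, and 46.6, 43.6 and 47.9 in AET_MET. Its AET libraries were just below SED, at -0.15 ± 0.07 (edgeR adjusted p = 0.181).

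Of the 4 kinases that phosphorylate eIF2, only Eif2ak2 was called. Eif2ak2 (chr17:78852564-78882573), which encodes PKR, the kinase activated by double-stranded RNA, measured 3.45, 4.54 and 4.54 CPM in SED, 6.06, 5.58 and 6.12 in AET, and 5.18, 5.23 and 5.07 in AET_MET. The 3 groups did not overlap, with AET highest and AET_MET between. The log2 change was 0.50 ± 0.14 in AET against SED (edgeR adjusted p = 0.0333), and it was lost without SED replicate 1 or 2 or any 1 of the AET libraries. Eif2ak4, which encodes the amino acid sensor GCN2, measured 6.33, 5.50 and 5.37 CPM in SED, 4.63, 4.61 and 4.87 in AET, and 5.92, 5.14 and 5.21 in AET_MET. AET was lowest without overlap, at -0.29 ± 0.13 against SED (edgeR adjusted p = 0.163). Eif2ak3, which encodes the endoplasmic reticulum kinase PERK, measured 6.62, 4.36 and 6.64 CPM in SED, 5.06, 7.14 and 5.15 in AET, and 5.74, 5.14 and 5.97 in AET_MET, with wide overlap. Eif2ak1, the heme-regulated kinase, was the most abundant of the 4 at 35.8 ± 3.05 CPM in SED and 32.4 ± 2.28 in AET, against 35.9 ± 0.678 in AET_MET.

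Beside these factors, 50 other genes that regulate or follow initiation were listed, and 48 were tested. In AET against SED 1 rose and 8 fell, against 5.82% and 6.45% of all genes. In AET_MET against SED 1 rose and 3 fell (2.17% and 2.42% of all genes), and in AET_MET against AET 1 rose and 2 fell (1.66% and 1.77%). Ppp1r15a, an inducible subunit of the phosphatase that reverses eIF2 phosphorylation, measured 47.1, 55.1 and 46.4 CPM in SED, 19.0, 17.5 and 21.3 in AET, and 18.7, 30.7 and 22.3 in AET_MET. Against SED it fell in both trained groups, with log2 changes of -1.36 ± 0.16 in AET (edgeR adjusted p = 0.000974) and -1.05 ± 0.16 in AET_MET (edgeR adjusted p = 0.00850). The constitutive subunit gene Ppp1r15b fell by 0.56 ± 0.09 and 0.36 ± 0.09. Among regulators of the cap complex, Pdcd4, an inhibitor of eIF4A, rose by 0.55 ± 0.12 in AET and 0.66 ± 0.12 in AET_MET against SED. Its libraries ran from 7.04 to 7.96 CPM in SED, 10.1 to 12.4 in AET and 10.5 to 13.0 in AET_MET. Mknk2, a kinase of eIF4E, fell by 0.53 ± 0.10 in AET, and Gigyf2, a partner of the cap-binding repressor eIF4E2, fell by 0.39 ± 0.08 in AET_MET against AET. Eif4ebp1, which encodes a repressor of eIF4E, averaged 47.8 ± 5.26 CPM for SED, 18.4 ± 1.17 for AET and 33.8 ± 0.119 for AET_MET (SD, n = 3), the only 1 of the 50 called in all 3 comparisons.

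Of the mTORC1 and S6 kinase list, Akt1s1, an inhibitory part of mTORC1, and Rps6kb2, a second S6 kinase gene, fell in AET by 0.30 ± 0.07 and 0.43 ± 0.10, and the other 5 of 7 were not called. Ddx3x, a helicase that aids scanning, and Abce1, which recycles ribosomes, fell in AET by 0.32 ± 0.08 and 0.29 ± 0.07. Abcf1, a binding partner of eIF2, fell in AET_MET against AET by 0.47 ± 0.09. None of the 9 elongation genes, 5 poly(A) binding genes, 4 tested termination and rescue genes or 2 genes of eIF5A hypusination was called in any comparison. Their median log2 changes in AET against SED were -0.04, -0.06, -0.20 and -0.11.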

How the data were processed

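The authors deposited 1 table of RSEM expected counts per gene, with 1 column for each of 9 libraries. STAR 2.5.3a, RSEM 1.3.0, edgeR 3.34.0 and GRCm38 are named without roles, per the submitters' processing notes. The kit was a SMARTER mRNA-Seq kit, per the labels' protocols, and the sources used here give no annotation release, filter or strand setting. Symbols and coordinates came from the GENCODE M21 annotation of GRCm38 by identifier, for 52135 of 55416. Values were rounded (4.85% to 5.53% were not whole) and tested with edgeR 4.0.16 in R 4.3.3: TMM scaling, filterByExpr, and the robust quasi-likelihood test in 1 fit of all libraries, with 6 residual degrees of freedom. The fit was tested on simulated data. Levels per length divide counts by the length of all annotated exons of a gene, which can exceed that of its mRNA. They are scaled to the same total in every library, and serve only to compare genes. The labels do not say that samples are separate mice, so p-values measure the spread between samples, which may be technical. The stems of the library names follow the groups, and a batch with the same layout cannot be told apart from them.

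Members and lists were chosen with earlier results of these data known. Values per library are given for factors called in any comparison, the 2 of each complex with the smallest p, and a panel of 11, together 30 factors. Motifs were searched in RefSeq promoters (GRCm38.p6). Alternatives were other scalings, filters, DESeq2 1.42.0, fits of 2 groups, a replicate block, leaving out each library, and a correction for length and GC.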

Additional observations from a re-analysis of the deposited data

How the results depend on the processing

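Of 51 tested factors, edgeR called 7 in AET against SED, 8 in AET_MET against AET, and 0 in AET_MET against SED. With 1 library left out the first count ran from 2 to 8 and the second from 0 to 6, and the third stayed at 0. Over all genes the first 2 counts then ran from 934 to 1509 and from 23 to 461. Among the factors, fitting only the 2 groups compared gave 2, 4 and 0. Upper-quartile scaling gave 4 calls in AET against SED, 1 of them higher. Library sizes alone gave 5 there, 2 of them higher, and called 2 in AET_MET against SED, and testing without a filter called 1. Library sizes alone moved the median log2 change of all genes by up to 0.10, and the median of the factors to 0.04 in AET_MET against SED and to 0.21 against AET. The length and GC correction, added after seeing the data, gave 12, 7 and 0. With it Eif4a2 was no longer called in AET_MET against AET (edgeR adjusted p = 0.0635). In AET against SED, the fit of 2 groups kept only Eif3m and Eif4a1, upper-quartile scaling and library sizes alone lost Eif4a2, Eif3k and Eif3j2, and Eif2ak2 was lost with DESeq2 and without a filter. DESeq2 called 10 there, 1 higher and 9 lower, adding Eif5b (adjusted p = 0.0228), Eif2s3x (0.0176), Eif3f (0.0397) and Eif5a (0.0278). In AET_MET against AET, the fit of 2 groups lost Eif3j2, Eif5b, Eif6 and Eif4a2, testing without a filter lost Eif5b and Eif6, and upper-quartile scaling lost Eif4a2. DESeq2 kept all 8 calls there and added Eif3f (adjusted p = 0.0211) and Eif2b1 (0.0458). Eif3f was also gained without a filter (edgeR adjusted p = 0.0479). Library sizes alone gained Eif3f (edgeR adjusted p = 0.0360), Eif2b1 (0.0388) and Eif2a (0.0265). No direction of a called factor reversed under any alternative run, and the causes of the lost calls were not tested. With the replicate number as a block the counts were 8, 6 and 0, and Eif6 (edgeR adjusted p = 0.0614) and Eif4a2 (0.0720) lost their calls in AET_MET against AET, while Eif5b gained one in AET against SED (0.0384). Same-numbered libraries deviated together at correlations of -0.05 to 0.18, so the numbers were not taken as pairing the samples, and not every library correlated best with its own number. Depth limits Eif4e1b, at 0.123 CPM or less, and counts shared with near-identical copies limit Eif3j2.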
